A study of Mus musculus with 7 samples.

Results

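The carboxylesterase genes described here are the 10 members Ces1c, Ces1d, Ces1e, Ces1f, Ces1g, Ces2a, Ces2c, Ces2e, Ces3a and Ces3b, chosen by name from the 22564 genes of the deposited expression table. Each symbol stood on a single line, all 10 members passed the filter on low values (at least 0.5 FPKM in at least 3 libraries), and 11861 genes passed it in all. FPKM is the number of fragments scaled to the length of the transcript and to the depth of the library, so levels can be compared between genes. RNA was measured in livers of C57bl/6 mice that were labelled PBS (phosphate-buffered saline, 3 libraries) or PTH (parathyroid hormone, 4 libraries). The titles shorten these groups to C and C+P, what the shared letter C stands for is not given, and neither are the dose, the form of the hormone, the duration, or the age and sex of the mice. Libraries are named by group and number, such as PBS 3, and nothing in the labels says that each came from a separate animal, so every p-value measures the spread between these samples only.

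Carboxylesterases are serine hydrolases that cut ester and amide bonds, both in drugs and other foreign compounds and in stored lipids such as triacylglycerol. In liver most of them sit in the lumen of the endoplasmic reticulum (ER), held there by a short signal at the end of the protein, and a member without this signal can be secreted into the plasma. The mouse has a larger set of these genes than the human, arranged as tandem copies, and the activity of the family is well known in drug metabolism and in the release of stored fat for lipoprotein assembly.

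The 10 members lie on chromosome 8 in 2 runs (GRCm38, GENCODE M21). The Ces1 run, from Ces1a to Ces1h, holds 8 genes on the minus strand within 359512 bases. Within it Ces1c (ENSMUSG00000057400) lies at chr8:93099015-93131283, Ces1d (ENSMUSG00000056973) at chr8:93166068-93197838, Ces1e (ENSMUSG00000061959) at chr8:93201218-93229619, Ces1f (ENSMUSG00000031725) at chr8:93256236-93279747 and Ces1g (ENSMUSG00000057074) at chr8:93302369-93337308. The run from Ces2a to Ces4a holds 11 genes of the plus strand within 416107 bases. There Ces2a (ENSMUSG00000055730) lies at chr8:104734003-104741634, Ces2c (ENSMUSG00000061825) at chr8:104847068-104854483, Ces2e (ENSMUSG00000031886) at chr8:104926260-104934672, Ces3a (ENSMUSG00000069922) at chr8:105048601-105058413 and Ces3b (ENSMUSG00000062181) at chr8:105083753-105093929. None of the 10 shares its locus in the table with another gene.

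The sequence around the catalytic serine shows how close the copies are. Below are 48 bases of coding sequence per gene (GENCODE M21, GRCm38, coding strand, 5′ to 3′), with the 17 bases of the active-site pattern in capitals. The in-frame pattern GGNNNNTCNNCNGGNGG was searched and occurred once in the coding sequence of each of the 10 members, so all of them keep this motif. The 4 Ces1 genes shown are the 3 that rose in PTH and the abundant Ces1c, and Ces2a, Ces2e and Ces3a stand for the other branches.
Ces1c: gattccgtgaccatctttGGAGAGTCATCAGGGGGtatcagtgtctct
Ces1d: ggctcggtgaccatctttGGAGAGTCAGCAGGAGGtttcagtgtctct
Ces1e: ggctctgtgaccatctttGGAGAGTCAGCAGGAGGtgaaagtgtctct
Ces1f: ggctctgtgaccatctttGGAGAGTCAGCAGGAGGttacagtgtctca
Ces2a: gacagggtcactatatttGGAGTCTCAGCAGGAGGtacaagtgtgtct
Ces2e: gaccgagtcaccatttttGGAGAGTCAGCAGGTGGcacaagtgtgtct
Ces3a: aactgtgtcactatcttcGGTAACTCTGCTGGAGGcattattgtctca

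The end of the coding sequence, where the ER retention signal is encoded, separates the members. The last 30 coding bases before the stop codon are given with the final 12, which encode that signal where it is present, in capitals. The final 12 bases matched the pattern CANNNNGANNTN in 7 of the 10 members, and Ces1c, Ces3a and Ces3b did not match. Among those that matched, Ces1g, Ces2c and Ces2e, whose ends are not shown, and Ces2a did not pass the test for a change in PTH. A match thus does not separate the members that rose from the others. The pattern is looser than the signal itself, and a match is a description of the letters.
Ces1c: acagaccctactgaacacACAGAACACAAA
Ces1d: aggccatcccacagggaaCATGTTGAGCTC
Ces1e: aagcaactgccgacagaaCACACTGAGCTG
Ces1f: aaacaaccccagccatacCACAATGAGCTG
Ces2a: aagggttctcaggacaagCATGCAGAGCTG
Ces3a: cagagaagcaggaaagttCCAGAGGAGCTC

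How far reads can tell the copies apart differs between members. Over the aligned coding sequence Ces3a and Ces3b were 95.3% identical, the Ces2 members between 82.6% and 83.7%, and Ces1d was 80.3% identical to Ces1e and 77.7% to Ces1f. Of all stretches of 50 bases in the annotated transcript, 1.28% in Ces1d, 3.21% in Ces1e and 1.598% in Ces1f also occur in a transcript of another gene, so the 3 members that rose are nearly free of shared sequence at that length. The share was 42.2% in Ces2c, 30.9% in Ces3a, 26.1% in Ces3b, 22.2% in Ces2a and 16.98% in Ces1c, and the values of these 5 genes are uncertain to that extent, since how the authors assigned shared reads is not stated.

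The estimated reads per library, taken from the deposited scaled counts, ran from 1200679 in PBS 3 to 2556679 in PBS 1 and from 1621721 in PTH 4 to 3281507 in PTH 2, so PBS 3 was the shallowest. PBS 3 was also the lowest PBS library for all 10 members. The 14 hepatocyte markers in the table were all present and summed to between 18376 and 40412 FPKM in PBS, with PBS 3 the lowest, and to between 24675 and 43738 FPKM in PTH, which fits the liver label. Across all tested genes the median change from PBS to PTH was 0.55 on the log2(FPKM + 0.5) scale, and 22.8% of genes were higher and 2.37% lower in PTH (limma, Benjamini-Hochberg adjusted p under 0.05). When libraries were brought to a common median these shares were 3.25% and 5.25%, and the scaled values are therefore given beside the deposited ones. The liver was measured as a whole, so fewer cells of a type and less RNA per cell cannot be told apart.

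Of the 10 carboxylesterase genes, Ces1d, Ces1e and Ces1f rose in PTH, and none fell. The largest change was that of Ces1f, about 10.5-fold, followed by Ces1e and Ces1d, while the abundant Ces1c and Ces3a did not pass the test, and neither did Ces3b. The count of 3 of 10 stands beside the 22.8% of all tested genes that were higher in PTH, and is close to it. After common-median scaling 1 of 10, Ces1f, was higher, beside 3.25% of all genes. In the scaled counts brought to a common median 2 were, Ces1e and Ces1f, beside 518 of 11932 genes. No member was lower at an unadjusted p under 0.05 as deposited, and 1, Ces2e, was lower at that level under a common median. The median log2 change of the 10 members was 0.80 as deposited and 0.22 under a common median, beside 0.55 and -0.02 over all tested genes.

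**Figure D1:**
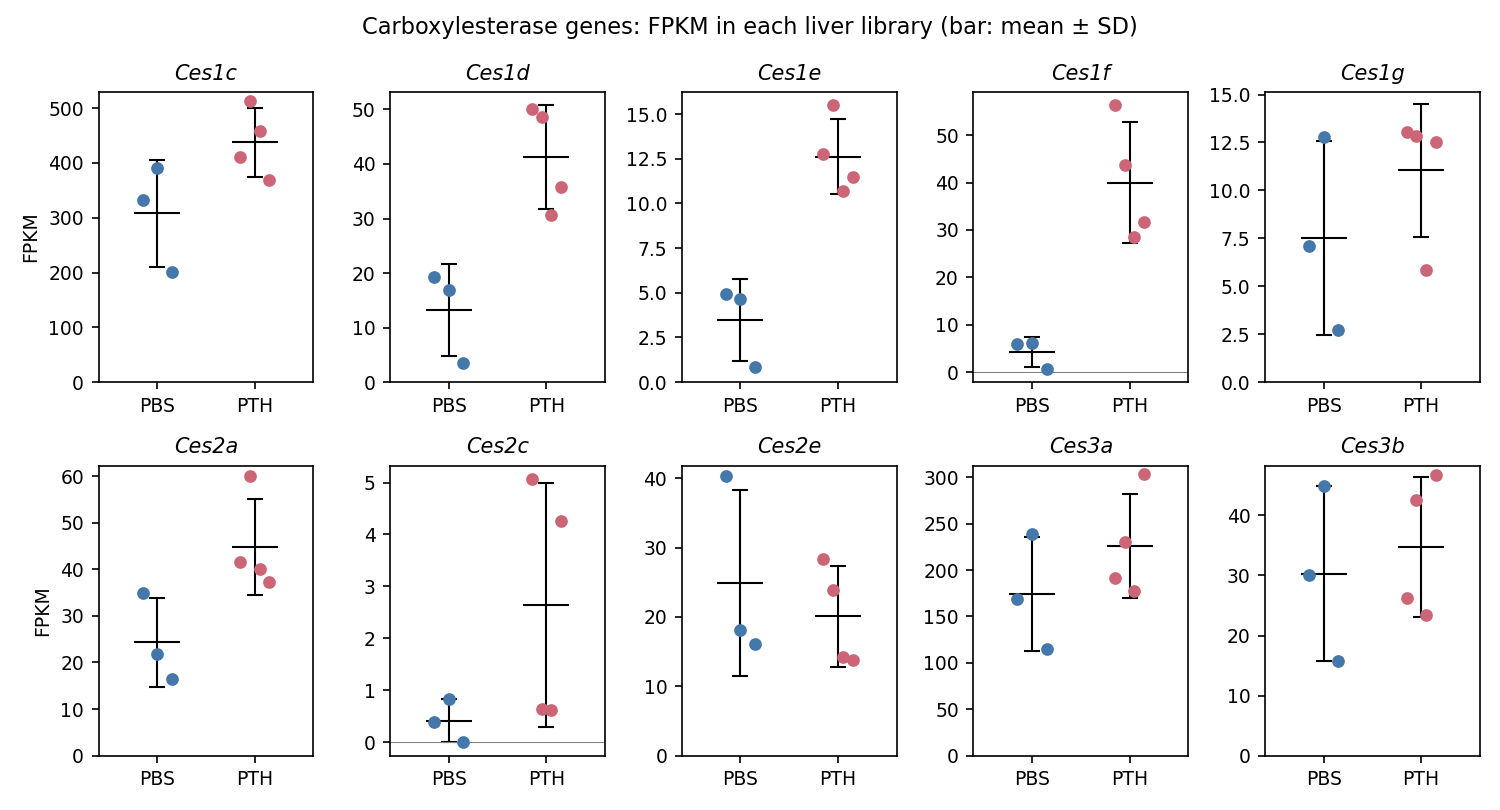
FPKM of each of the 10 carboxylesterase genes (vertical axes, each with its own scale from 0) in the 3 PBS libraries (blue) and the 4 PTH libraries (red). Points are libraries in numerical order from left to right within a group, the long bar is the mean and the whiskers the SD. The groups do not overlap for Ces1d, Ces1e, Ces1f and Ces2a.

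The first members are the hydrolases retained in the ER. Ces1f, described in mouse as a second triacylglycerol hydrolase, had 6.00, 6.11 and 0.684 FPKM in PBS 1 to 3, against 56.3, 43.6, 28.4 and 31.7 FPKM in PTH 1 to 4. The groups lay far apart, with the lowest PTH library at 28.4 and the highest PBS library at 6.11 FPKM. Its mean was 4.26 ± 3.10 FPKM in PBS (SD, n = 3) and 40.01 ± 12.7 FPKM in PTH (SD, n = 4). The change was 3.40 on the log2(FPKM + 0.5) scale (SE 0.54, limma adjusted p = 0.00386), which is a 10.5-fold difference with a 95% interval of 4.65 to 23.9. Ces1f ranked 14th of the 11861 tested genes by this change. The lowest level rested on 3 reads in PBS 3, beside 45 and 36 reads in PBS 1 and PBS 2 and between 162 and 436 in PTH. Without PBS 3 the log2 change was 2.58 (limma adjusted p = 0.00707), under a common median it was 2.83 (limma adjusted p = 0.0142), and with both it was 2.08 (limma adjusted p = 0.0139). The FPKM per scaled count of Ces1f was 0.101 in each PBS library and 0.107 to 0.115 in PTH. FPKM thus shows a somewhat larger rise than the scaled counts, which gave a log2 change of 3.24 (limma adjusted p = 0.00591).

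Ces1d, the mouse triacylglycerol hydrolase that releases stored fat for very low density lipoprotein (VLDL), had 19.2, 16.9 and 3.49 FPKM in PBS, against 50.1, 48.6, 30.6 and 35.8 FPKM in PTH. Every PTH library was above every PBS library, and PBS 3 stood well below the other PBS libraries. The means were 13.2 ± 8.496 FPKM in PBS (SD, n = 3) and 41.3 ± 9.56 FPKM in PTH (SD, n = 4). The log2 change was 1.88 (SE 0.49, 95% interval 0.82 to 2.95, limma adjusted p = 0.0203). It was 1.14 without PBS 3 (limma adjusted p = 0.0406), and 1.31 under a common median, where it did not pass (limma adjusted p = 0.0995, from 0.0125 to 0.0995 over 17 other settings). Without PTH 2 it did not pass either (limma adjusted p = 0.0661). The FPKM per scaled count of Ces1d varied 1.42-fold between libraries. By scaled counts its log2 change was 1.84 (limma adjusted p = 0.0125).

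Ces1e, known as egasyn for holding beta-glucuronidase in the ER, had 4.96, 4.64 and 0.842 FPKM in PBS, against 12.7, 15.5, 10.7 and 11.5 FPKM in PTH. Again the groups did not overlap and PBS 3 was the lowest library, with 4 reads. The means were 3.48 ± 2.29 FPKM in PBS (SD, n = 3) and 12.6 ± 2.11 FPKM in PTH (SD, n = 4). The log2 change was 1.95 (SE 0.45, 95% interval 0.97 to 2.94, limma adjusted p = 0.0136). It was 1.29 without PBS 3 (limma adjusted p = 0.0267), and 1.38 under a common median, where it did not pass (limma adjusted p = 0.0698, from 0.00291 to 0.0741 over 17 other settings). In the scaled counts brought to a common median it passed, at 1.42 (limma adjusted p = 0.0326). Without PTH 2 it narrowly missed the threshold (limma adjusted p = 0.0504). The FPKM per scaled count of Ces1e varied 1.34-fold between libraries. By scaled counts its log2 change was 2.03 (limma adjusted p = 0.00291).

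Ces1g, the neighbour of Ces1f that has been tied to liver lipid content in mice, had 7.08, 12.8 and 2.71 FPKM in PBS, against 13.03, 12.8, 5.86 and 12.5 FPKM in PTH. The ranges overlapped, and PTH 3 lay below the other PTH libraries. The means were 7.53 ± 5.05 FPKM in PBS and 11.1 ± 3.47 FPKM in PTH, and the log2 change of 0.69 (SE 0.46, 95% interval -0.32 to 1.69) did not pass the test (limma adjusted p = 0.275). Its change was 0.11 under a common median.

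Ces1c, the secreted plasma carboxylesterase of mice and the most abundant member, had 332, 391 and 201 FPKM in PBS, against 410, 514, 458 and 369 FPKM in PTH. PBS 2 lay within the PTH range, and PBS 3 was far below all other libraries. The means were 308 ± 97.8 FPKM in PBS and 438 ± 62.5 FPKM in PTH. Its log2 change of 0.55 (SE 0.29, 95% interval -0.10 to 1.20, limma adjusted p = 0.179) equals the median of all tested genes to 2 decimals, and it was -0.02 under a common median.

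In the Ces2 branch, Ces2a, an ER hydrolase with activity on acylglycerols in mouse liver, had 34.98, 21.7 and 16.4 FPKM in PBS, against 41.7, 60.02, 40.03 and 37.3 FPKM in PTH. The groups did not overlap, although PBS 1 and PTH 4 were close. The log2 change was 0.91 (SE 0.31, 95% interval 0.23 to 1.58, limma adjusted p = 0.0501), just short of the threshold. Ces2a passed in 4 of 17 other settings, among them without PBS 1 (limma adjusted p = 0.0297), with limma adjusted p between 0.0221 and 0.406, and under a common median its change was 0.33 (limma adjusted p = 0.406).

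Ces2e, annotated in mouse as a pyrethroid hydrolase, was the only member with a lower mean in PTH, at 40.4, 18.2 and 16.1 FPKM in PBS, against 28.3, 23.9, 14.2 and 13.9 FPKM in PTH. The highest library of all was PBS 1, and the ranges overlapped widely. The log2 change was -0.25 (SE 0.38, 95% interval -1.08 to 0.58, limma adjusted p = 0.639). It was 0.16 without PBS 1 and -0.82 under a common median (limma adjusted p = 0.135).

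Ces2c, an acylcarnitine hydrolase in mouse, was the least abundant member, at 0.391, 0.828 and 0 FPKM in PBS, against 5.07, 0.636, 0.622 and 4.25 FPKM in PTH. PTH 1 and PTH 4 were high, whereas PTH 2 and PTH 3 lay within the PBS range. These levels rest on between 0 and 12 reads per library, and the FPKM per scaled count of Ces2c varied 4.195-fold between libraries, so its FPKM did not follow its scaled counts. The log2 change was 1.52 by FPKM (limma adjusted p = 0.0917) and 0.71 by scaled counts (limma adjusted p = 0.182).

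Ces3a and Ces3b, near-identical liver carboxylesterases whose last coding bases lack the pattern above, did not pass the test. Ces3a had 169, 238 and 115 FPKM in PBS, against 192, 231, 178 and 303 FPKM in PTH, with a log2 change of 0.41 (SE 0.31, 95% interval -0.28 to 1.09, limma adjusted p = 0.346). Ces3b had 30.1, 44.9 and 15.8 FPKM in PBS, against 26.2, 42.6, 23.5 and 46.7 FPKM in PTH, with a log2 change of 0.26 (SE 0.38, 95% interval -0.57 to 1.09, limma adjusted p = 0.630). In both genes PTH 4 was the highest library and PBS 3 the lowest. Both changes were negative under a common median, at -0.17 and -0.32.

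**Figure D2:**
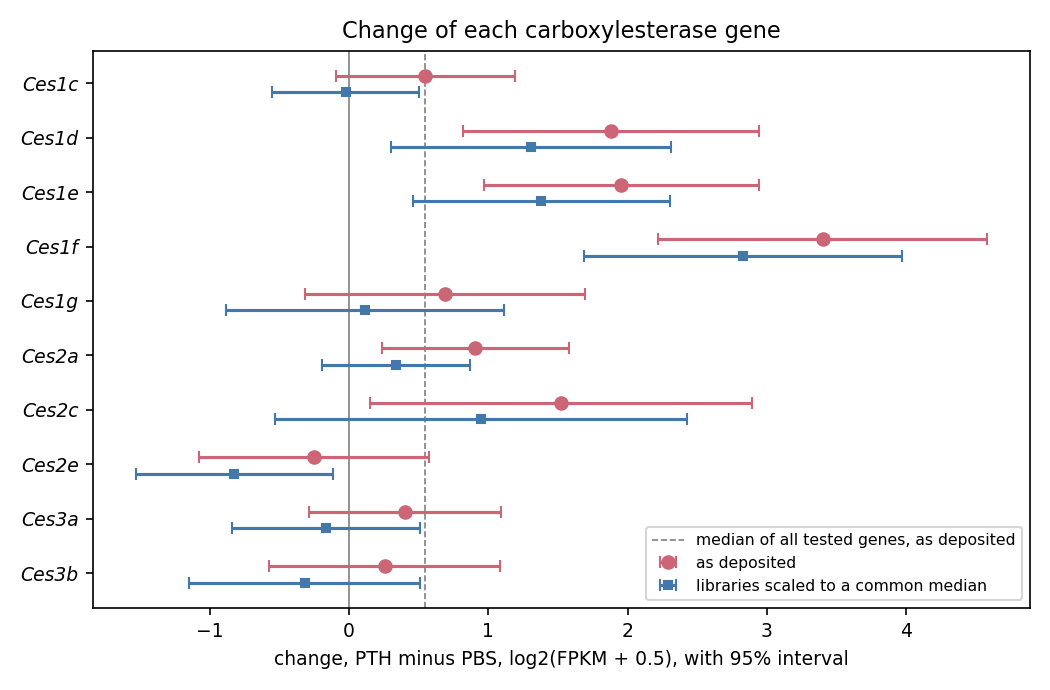
Change of each member from PBS to PTH on the log2(FPKM + 0.5) scale (horizontal axis) with its 95% interval from limma, as deposited (red circles) and with libraries scaled to a common median (blue squares). The dashed line is the median change of all tested genes, 0.55, and Ces1f lies farthest to the right at 3.40 and 2.83.

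An exact two-sided permutation test over the 7 libraries gave 0.0571 for Ces1d, Ces1e, Ces1f and Ces2a, the smallest p it can give, so it cannot reach 0.05 here. The same exact permutation test gave between 0.114 (Ces1c) and 0.686 (Ces3b) for the other members. The FPKM ranges of PBS and PTH did not overlap, with PTH higher, for 4 of 10 members, and for 32.9% of all tested genes.

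The order of the members by level differed between the groups below the leading Ces1c and Ces3a. In PBS the order by mean FPKM was Ces1c, Ces3a, Ces3b, Ces2e, Ces2a, Ces1d, Ces1g, Ces1f, Ces1e and Ces2c, and of these neighbours the ranges over libraries were separate only between Ces3a and Ces3b and between Ces1e and Ces2c. In PTH it was Ces1c, Ces3a, Ces2a, Ces1d, Ces1f, Ces3b, Ces2e, Ces1e, Ces1g and Ces2c. There the ranges were separate between Ces1c and Ces3a, between Ces3a and Ces2a and between Ces1g and Ces2c, and all other neighbours overlapped.

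The summed level of the family was 645, 756 and 371 FPKM in PBS, against 836, 992, 790 and 865 FPKM in PTH. All PTH sums lay above all PBS sums, and the ratio of the means was 1.47. The ratio was 1.61 for the 5 Ces1 members, 1.36 for the 3 Ces2 members and 1.28 for the 2 Ces3 members. Scaled to a common median, the family sums of PTH and PBS differed by 1.63 FPKM in their means. The sum of Ces1d, Ces1e and Ces1f was 20.95 ± 13.9 FPKM (SD, n = 3) in PBS and 93.9 ± 23.3 FPKM (SD, n = 4) in PTH, a ratio of 4.48. Ces1d, Ces1e and Ces1f were grouped because they rose in the same data, so their higher sum in PTH follows from that choice. All sums here are a description, and no test was run on them.

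The make-up of the family does not depend on the scaling between libraries. Ces1c held 52.4% ± 1.35 of the summed FPKM in PBS (SD, n = 3) and 50.4% ± 6.38 in PTH (SD, n = 4), and Ces3a held 29.6% ± 2.88 and 25.9% ± 6.07. The share of Ces1f was 0.930%, 0.808% and 0.184% in PBS and 6.74%, 4.39%, 3.60% and 3.66% in PTH. The combined share of Ces1d, Ces1e and Ces1f was 3.23% ± 1.71 in PBS and 10.8% ± 2.49 in PTH, and their ranges did not overlap, with 4.68% the highest in PBS and 8.83% the lowest in PTH. These genes were grouped because they rose in the same data. Their larger combined share in PTH follows from that choice and is no separate evidence.

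**Figure D3:**
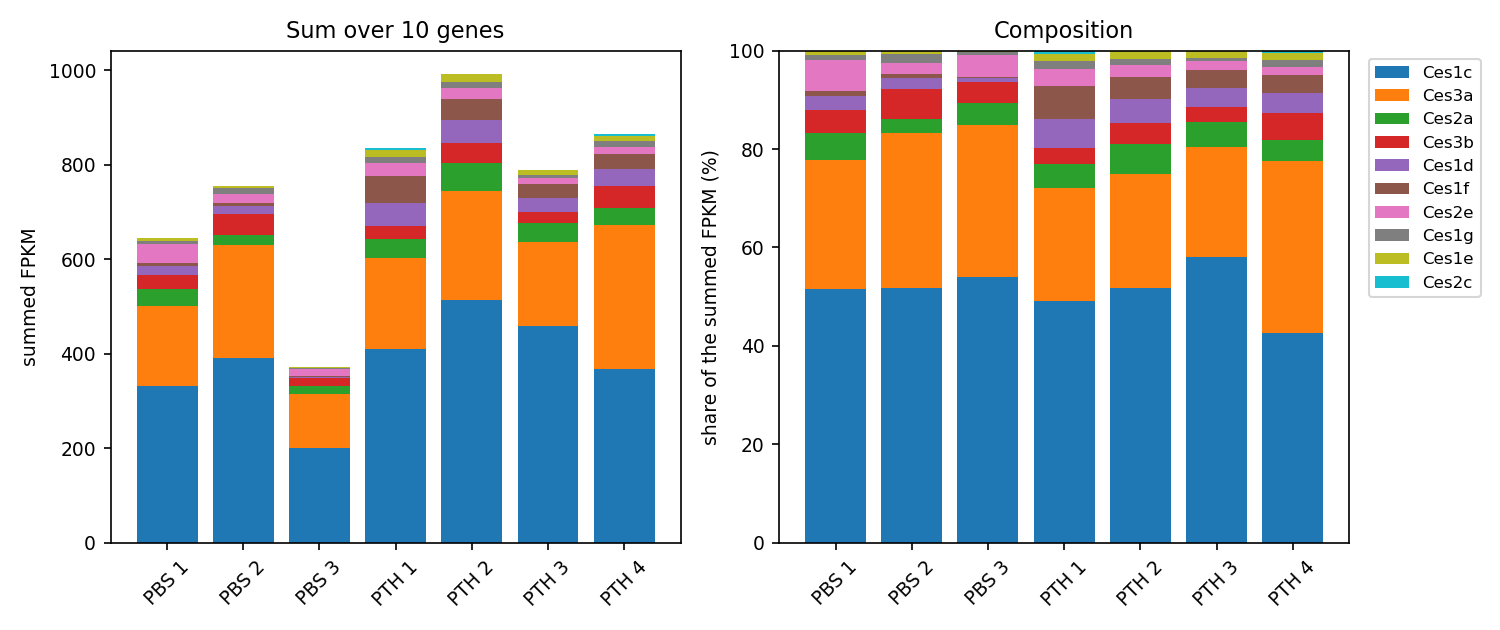
Left, FPKM of the 10 members stacked in each library; right, the same as a share of the library's sum in percent. Ces1c and Ces3a fill most of every bar, and the bands of Ces1d (purple), Ces1f (brown) and Ces1e (yellow-green) are wider in the 4 PTH libraries.

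Ratios within a library compare members without regard to the scaling between libraries. The level of Ces1f relative to Ces1d was 0.312, 0.362 and 0.196 in PBS and 1.12, 0.898, 0.928 and 0.885 in PTH, so Ces1f lay clearly below Ces1d in every PBS library and near its level in every PTH library. Relative to Ces1c the log2 ratio was higher in PTH by 2.85 for Ces1f, by 1.41 for Ces1e and by 1.33 for Ces1d, each with separate ranges. By contrast the ratio of Ces1e to Ces1d overlapped between groups, with a log2 difference of 0.07, as did that of Ces3a to Ces3b (0.15) and that of Ces1c to Ces3a (0.14). The ratio of Ces2a to Ces2e was 0.866, 1.20 and 1.01 in PBS and 1.47, 2.51, 2.83 and 2.69 in PTH, so every PTH ratio lay above every PBS ratio. The pairs were picked, and not all possible pairs were compared. Separate ranges are to be expected where a member that rose is set against a member that did not, such as Ces1c. The same holds for Ces2a, whose groups did not overlap, set against Ces2e, whose mean was lower in PTH. No test was run on the ratios.

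**Figure D4:**
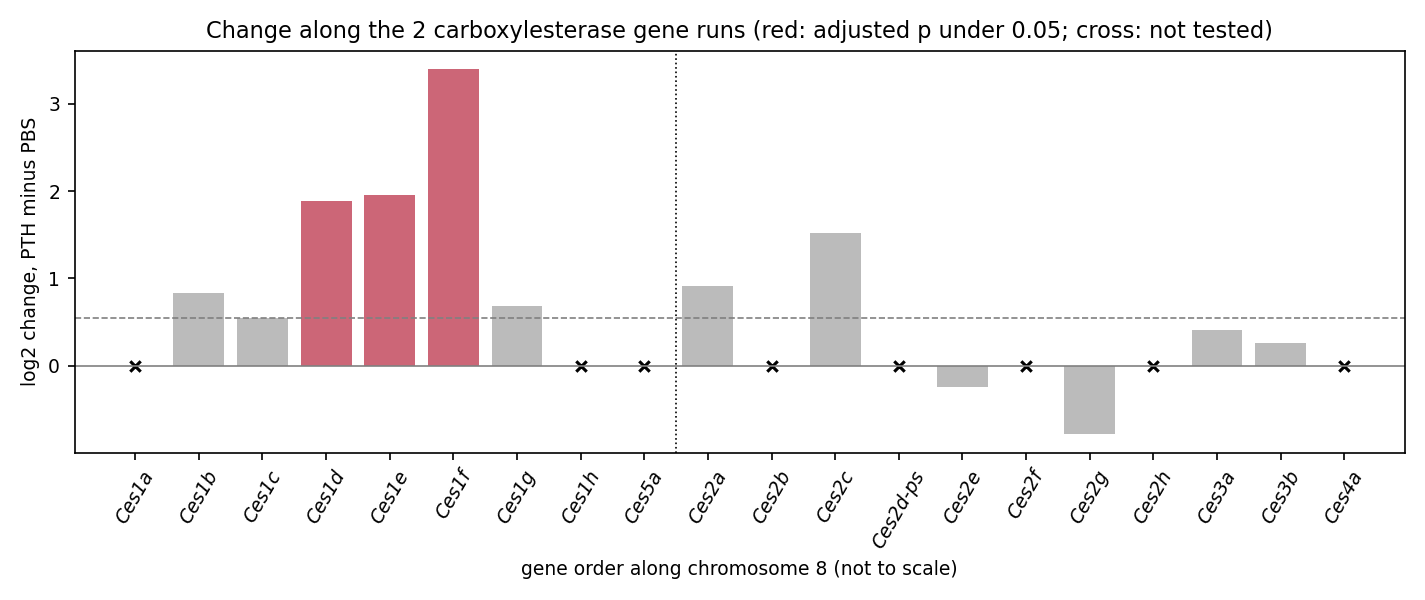
Change on the log2(FPKM + 0.5) scale (vertical axis) of the carboxylesterase genes in their order along the chromosome, with the Ces1 run and Ces5a left of the dotted line and the Ces2 to Ces4 run right of it. Red bars passed the test, grey bars did not, crosses mark genes too low to be tested and the dashed line is the median of all tested genes. The 3 red bars, Ces1d, Ces1e and Ces1f, are direct neighbours.

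The 3 members that rose are direct neighbours, within 113680 bases, with only 3379 bases between Ces1d and Ces1e. The genes on either side, Ces1c and Ces1g, did not pass the test. Of the 9 other carboxylesterase genes listed, only Ces1b and Ces2g were high enough to be tested, and 0 passed in either direction by limma, with 1 higher at an unadjusted p under 0.05. Ces1b, next to Ces1c, had 8.99 ± 3.58 FPKM in PBS and 15.9 ± 2.73 FPKM in PTH (log2 change 0.84, limma adjusted p = 0.0615, past the threshold without PBS 2 or PTH 1). Ces2g, in the other run, had 5.20 ± 1.15 FPKM in PBS and 2.999 ± 1.47 FPKM in PTH (log2 change -0.79, limma adjusted p = 0.142), and it passed under a common median at -1.36 (limma adjusted p = 0.0487). With a library also left out, that call held in 1 of 7 fits, the one without PTH 1 (limma adjusted p from 0.0192 to 0.137). Ces2f, Ces2h and Ces5a were listed at 0 in all 7 libraries.

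Across the 7 libraries the profiles of members can be compared by the root mean square difference of their centred log2(FPKM + 0.5) values, where a smaller value is a closer likeness. Among the members Ces1d and Ces1e were nearest to each other, at 0.153, and Ces3a and Ces3b at 0.199. Ces1c was nearest to Ces2a at 0.322, Ces1g to Ces3b at 0.385 and Ces1f to Ces1d at 0.764, so no other member lay close to Ces1f. Of 3949 other genes with a mean of at least 10 FPKM, those nearest to the mean profile of the family were Snrpb (0.170), Ugt1a6b (0.183), Plod3 (0.197), Cyp2c44 (0.217) and Cib1 (0.218), and the loci of Ugt1a6b and Plod3 in the table are also listed for another gene. Of these other genes Rabac1 was nearest to both Ces1e (0.111) and Ces1d (0.191), and it lay closer to Ces1e than Ces1d did. Nearest to Ces1f were Mup7 (0.501), Gstm1 (0.652), Ephx1 (0.665), Ugt2b35 (0.670) and Rps27 (0.705). These single members were chosen after the values were seen. Mup7 belongs to a family of near-identical copies, and its level is uncertain for that reason. Of the genes nearest to Ces1f, Ephx1 encodes microsomal epoxide hydrolase and Gstm1 a glutathione transferase, both enzymes of foreign-compound metabolism. The measure includes the difference between the groups, and the genes nearest to Ces1f had log2 changes from 2.29 (Gstm1) to 3.12 (Mup7). Likeness here is thus in part a restatement of the size of the change.

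Sequence before the gene start was taken from RefSeq (GRCm38.p6) for 7 of the 10 members. Of the 3 members that rose it covers Ces1e, and the upstream sequence of Ces1d, Ces1f and Ces3a was not analysed here. In the 250 bases upstream of the start, the longest run shared between Ces1 members was 11 bases, in Ces1e and Ces1g, and the longest between Ces2 members was 17 bases, in Ces2a and Ces2e. The 11-base run was picked as the longest match, so its rarity was set by that choice. It occurs in 8 (0.0244%) of the 32851 promoter windows, on either strand, those of Ces1e and Ces1g included. Members of different branches shared runs of up to 10 bases. Both pairs were picked by the length of their run alone. Of their members, Ces1e rose and Ces1g did not, and Ces2a came close to the threshold while Ces2e did not. Each line gives 100 bases, 5′ to 3′ on the strand of the gene, with the shared run in capitals. They lie at chr8:93229684-93229783 (Ces1e, minus strand), chr8:93337316-93337415 (Ces1g, minus strand), chr8:104733758-104733857 (Ces2a, plus strand) and chr8:104926037-104926136 (Ces2e, plus strand). Windows are counted from the RefSeq gene start, which for Ces1g (position 93337209) lies 99 bases inside the GENCODE gene given above, for Ces3b 2 bases inside it, and for the other 5 at the same base.
Ces1e: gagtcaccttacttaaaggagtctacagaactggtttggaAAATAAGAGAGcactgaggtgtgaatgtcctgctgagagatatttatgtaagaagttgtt
Ces1g: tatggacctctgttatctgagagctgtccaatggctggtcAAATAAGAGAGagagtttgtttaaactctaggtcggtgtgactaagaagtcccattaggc
Ces2a: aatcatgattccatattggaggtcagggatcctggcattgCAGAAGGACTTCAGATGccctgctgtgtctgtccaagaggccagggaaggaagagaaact
Ces2e: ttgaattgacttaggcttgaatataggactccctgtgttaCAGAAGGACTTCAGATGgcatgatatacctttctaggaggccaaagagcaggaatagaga

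Motifs of regulators of interest were searched as exact letters on both strands of these upstream windows. PTH acts through a receptor that raises cyclic AMP, and the full cyclic AMP response element TGACGTCA was in 0 of 7 member windows and in 1.55% of all windows. The shorter TGACG, which the full element contains, was found only in Ces2c and in 17.8% of all windows. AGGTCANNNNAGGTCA, a direct repeat bound by the xenobiotic receptors CAR and PXR, was in 0 of 7 and in 0.0152% of all windows. TGACNNNGC, the antioxidant response core, and CAAAGTCC, a site of HNF4A, were each in 0 of 7, beside 10.2% and 1.20% of all windows. These counts say only which letters stand in these windows.

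Genes that work beside the carboxylesterases were read from lists. Over all tested genes 22.8% were higher and 2.37% lower in PTH by limma, with a median log2 change of 0.55. Under a common median the shares were 3.25% and 5.25%. The median of each of these lists of partner genes was under that of all tested genes, so none of them rose more than genes did in general by this measure. This does not extend to the marker lists further below. Of 18 tested genes listed as other esterases and amidases, 6 rose and 0 fell by limma (1 lower at an unadjusted p under 0.05), with a median log2 change of 0.49. The list is wider than its name: it holds the epoxide hydrolases Ephx1 and Ephx2 and the beta-glucuronidase Gusb, and Ephx1 is among those that rose. Ephx1 rose from 24.3 ± 9.55 to 133 ± 18.9 FPKM (log2 change 2.51, limma adjusted p = 0.00219). Esd, which encodes S-formylglutathione hydrolase, rose from 45.8 ± 10.1 to 173 ± 62.8 FPKM (log2 change 1.87, limma adjusted p = 0.00456). Pon2, a lactonase, rose from 6.59 ± 0.457 to 22.1 ± 6.94 FPKM (limma adjusted p = 0.00744), and Bche, the plasma cholinesterase, from 8.37 ± 2.44 to 20.7 ± 1.26 FPKM (limma adjusted p = 0.00934). Of the 18, 4 were higher and 1 lower under a common median, and Bche did not pass there (limma adjusted p = 0.0739).

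Of 22 tested lipases and their cofactors, 7 rose and 0 fell by limma (1 lower at an unadjusted p under 0.05), with a median log2 change of 0.29. Lipc, the hepatic lipase, rose from 15.04 ± 2.18 to 36.6 ± 3.47 FPKM (log2 change 1.26, limma adjusted p = 0.00726). Abhd2 and Abhd6, both hydrolases of monoacylglycerol, rose from 28.4 ± 4.28 to 90.6 ± 22.9 FPKM (limma adjusted p = 0.00471) and from 2.49 ± 0.774 to 9.25 ± 2.95 FPKM (limma adjusted p = 0.00960). Plin2, a coat protein of the lipid droplet, rose from 135 ± 45.8 to 431 ± 98.8 FPKM (limma adjusted p = 0.00652). With common-median scaling 2 of the 22, Abhd2 and Plin2, were higher and 1 lower. Without PTH 2 the number that rose as deposited was 4, and over all 11861 tested genes it was 970 in place of 2709.

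Of 19 tested genes of VLDL assembly and triacylglycerol re-esterification, 1 rose and 2 fell, with a median log2 change of 0.34. Lpin1, a phosphatidate phosphatase that makes diacylglycerol, fell from 52.7 ± 32.8 to 7.63 ± 2.19 FPKM (log2 change -2.59, limma adjusted p = 0.00344). Pltp, a phospholipid transfer protein, fell from 10.1 ± 1.95 to 4.31 ± 1.33 FPKM (limma adjusted p = 0.0211), and Dgat2, which makes triacylglycerol, rose from 36.0 ± 8.36 to 90.8 ± 17.4 FPKM (limma adjusted p = 0.00926), though the loci of Pltp and Dgat2 are also listed for another gene. Pltp missed the threshold without PBS 1, PBS 2 or PTH 3. Under a common median Lpin1 and Pltp remained lower and Dgat2 did not pass (limma adjusted p = 0.0799).

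Of 27 tested nuclear receptors and other regulators of foreign-compound enzymes, 3 rose and 0 fell by limma (1 lower at an unadjusted p under 0.05), with a median log2 change of 0.12. These were Nfe2l2, which encodes NRF2 (19.5 ± 3.73 to 39.3 ± 3.16 FPKM, limma adjusted p = 0.0159), Nr3c1, the glucocorticoid receptor (12.3 ± 3.59 to 25.6 ± 1.69 FPKM, limma adjusted p = 0.0189), and Foxa2, a liver transcription factor (5.52 ± 3.58 to 15.2 ± 5.24 FPKM, limma adjusted p = 0.0279). With a common median 0 rose and 1, Nr1i2, fell (log2 change -1.88, limma adjusted p = 0.0341). As deposited Nr1i2 went from 10.2 ± 2.23 to 4.47 ± 2.88 FPKM and did not pass (log2 change -1.31, limma adjusted p = 0.0597). The number of regulators that rose as deposited was 0 without PBS 3 and 1 without PTH 2. Over all 11861 tested genes 1241 rose without PBS 3 and 970 without PTH 2. Each of the 3 regulators that rose missed the threshold without PBS 3, Nr3c1 also without PTH 2, and Foxa2 also without PBS 2, PTH 2 or PTH 4. Of 16 tested ER retention and folding partners, 0 passed by limma in either direction, with 2 higher and 0 lower at an unadjusted p under 0.05.

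Markers of other cells and of handling also differed between the groups. Beside the counts below, 22.8% of all tested genes were higher and 2.37% lower, and under a common median 3.25% and 5.25%. Of 9 tested Kupffer cell markers 7 fell, with sums of 214 to 284 FPKM in PBS and 94.6 to 189 FPKM in PTH, and of 6 tested neutrophil markers 3 fell, with sums of 38.6 to 783 and 3.98 to 37.1 FPKM. Of 14 handling stress genes 6 fell, with sums of 388 to 1358 FPKM in PBS and 127 to 214 FPKM in PTH. Of 14 hepatocyte markers 4 fell and 0 rose by limma (1 higher at an unadjusted p under 0.05), of 11 pericentral genes 3 fell, and of 12 periportal genes 6 fell and 1 rose. Under a common median, 8 Kupffer cell, 3 neutrophil, 6 handling stress, 5 hepatocyte, 4 pericentral and 6 periportal genes were lower and none of these lists had a gene higher, so the periportal rise was lost there. Of 5 tested adipocyte markers 2 rose (1 under a common median), with sums of 31.7 to 47.3 FPKM in PBS and 58.4 to 124 FPKM in PTH, while Adipoq, Plin1, Lep, Retn and Cfd were listed at 0 in all libraries. Of the other lists, 2 of 10 endothelial, 1 of 10 stellate cell, 3 of 8 bile duct, 2 of 6 erythroid and 1 of 3 intestinal markers rose and 0 fell by limma (0 lower at an unadjusted p under 0.05), and no lymphocyte marker was high enough to be tested. None of the 9 rises in these 5 lists passed under a common median, where 1 bile duct marker was lower. The sums ran from 92.5 to 120 FPKM in PBS and 125 to 157 FPKM in PTH for endothelial markers, and from 61.0 to 117 and 104 to 269 FPKM for erythroid markers. The sums overlapped between groups for erythroid, stellate cell, bile duct and intestinal markers, and were separate for endothelial markers. Of the intestinal markers Sis, Alpi, Cdx1 and Cdx2 were listed at 0 in all libraries. The part of these differences in the changes of the carboxylesterase genes was not tested.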

How the data were processed

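Liver RNA of 7 mouse samples was compared, 3 labelled PBS and 4 labelled PTH, grouped by their treatment. Per the file headers, the table holds FPKM values for 22564 genes, which were deposited by the authors, and a line that names no gene was left out. Bowtie 0.12.2 and the build mm8 are named in the submitters' processing notes, whereas gene positions in the table match GRCm38 (GENCODE M21). No quantifier is named. The count columns deposited by the authors hold a scaled signal, since 92.4% to 94.2% of values per library lie within 0.05 of a whole multiple of that library's step. They were not tested as counts, and totals divided by the step served as estimated reads. The deposited length column entered no test.

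Filtered genes (0.5 FPKM or more in 3 or more libraries, 11861 genes) were fitted as log2(FPKM + 0.5) by limma 3.58.1 in R 4.3.3, using eBayes with its trend and robust options, and p-values were adjusted over all of them by Benjamini-Hochberg at a two-sided threshold of 0.05. The added 0.5 makes folds of low genes too small. The fit was tested on simulated data. Exact permutation tests used SciPy 1.17.1 under Python 3.11.15, and figures matplotlib 3.10.9. The genes and lists were chosen with earlier results of these data known. Named are all members, at most the 4 genes of smallest p per list, the 5 genes most like the family's mean profile among those with a mean of at least 10 FPKM, and the nearest member of each. Nr1i2 is named besides, for its call under a common median. Sequences come from GENCODE M21 (coding) and RefSeq (upstream).

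Other settings tried were each library omitted in turn, a block for the replicate number, scaling to a common median or by quantiles, omission of the filter or a minimum of 1 FPKM, a pseudocount of 0.1 or 1, plain eBayes, the scaled counts (pseudocount and minimum of 5), and omission of loci listed for another gene. Common-median scaling of the scaled counts, and with each library omitted, was added after seeing the data.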

Additional observations from a re-analysis of the deposited data

Results flagged for a closer look

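Ces1g in PTH 3 stood apart from the other PTH libraries, at 5.86 FPKM beside at least 12.5 FPKM. The gap to its nearest neighbour was 0.928 of the range of the 4 libraries, above the 95% critical value of Dixon's test. This was the only one of 14 values examined over the PTH libraries to do so, and chance flags about 1 in 20. Without PTH 3 the log2 change of Ces1g was 0.95 (limma adjusted p = 0.165), in place of 0.69.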

How the results depend on the processing

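Ces1f was past the threshold in all 17 of the settings fixed with the design and in the 7 common-median fits with a library left out, with log2 changes of 2.08 to 3.82. Ces1d and Ces1e each passed in 14 of those 17, and missed without PTH 2 and under common-median and quantile scaling. The number of members higher in PTH was 1 under a common median and under quantile scaling, 1 to 4 with a library left out (1 without PTH 2, 4 without PBS 1), 1 in each common-median fit with a library left out and 2 in the scaled counts brought to a common median. Over all 11861 tested genes the number higher moved too. It was 2709 as deposited, 385 under a common median, 467 under quantile scaling, 970 without PTH 2 and 2151 without PBS 1. In the common-median fits with a library left out it was 69 to 644, and in the scaled counts brought to a common median 518 of 11932. No fit had a member lower.

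Signs turned for 5 members and for Cib1, one of the genes most like the family. With a library left out, Ces1c was 0.27 to 0.75 as deposited and -0.23 to 0.19 under a common median, Ces1g 0.14 to 1.16 and -0.36 to 0.60, Ces2e -0.49 to 0.16 and -0.99 to -0.50, Ces3a 0.14 to 0.66 and -0.38 to 0.10, Ces3b -0.14 to 0.60 and -0.64 to 0.04, and Cib1 0.40 to 1.26 and -0.10 to 0.67. The sign as deposited turned for Ces2e without PBS 1 and for Ces3b without PBS 3. With all libraries, Ces1c was -0.02, Ces3a -0.17 and Ces3b -0.32 under a common median. Scaled counts brought to a common median gave -0.06, -0.20 and -0.23, and Ces3b was -0.18 by quantile scaling. The cause was not tested.

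Under a common median the PTH minus PBS difference of the summed FPKM was 1.625 for the family, 37.81 for Ces1, -4.206 for Ces2 and -31.97 for Ces3. With a library left out it was 170.4 to 362.7, 141.8 to 253.7, 9.217 to 30.85 and 19.32 to 95.67 in that order. The share of Ces1c differed by -4.62 to 0.5149 percentage points with a library left out, and by 0.5149 without PTH 4.

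List counts under a common median were 1 lower for the other carboxylesterase genes, 1 lower for esterases, 2 higher and 1 lower for lipases, 0 higher for VLDL genes, and 0 higher and 1 lower for regulators. With a library left out, the number higher was 0 to 1 for other carboxylesterase genes, 4 (without PTH 2) to 7 for lipases, 0 (without PBS 3) to 3 for regulators and 0 to 1 for ER partners, and the number lower 0 to 1 for esterases, 0 to 1 for lipases, 1 to 2 for VLDL genes and 0 to 2 for regulators. Over all 11861 tested genes the number higher was 970 without PTH 2 and 1241 without PBS 3.

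Deviations from the group means had correlations of -0.16 to 0.01 over genes between libraries with the same number. They were -0.198 to 0.215 between libraries with different numbers. With so few libraries this cannot decide whether the numbers pair samples. With the replicate block, Ces1f changed by 3.49, Ces1d by 1.94 and Ces1e by 1.99, the member count stayed at 3 and the calls of Pltp, Nr3c1, Foxa2 and Ugt1a6b were lost while Snrpb passed. Over all 11861 tested genes 1558 were higher in that fit. PTH 4 has no PBS library of its number and does not inform the changes there, which equal those without PTH 4. The block is thus no separate check of their size.

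Depth limits the low members: Ces2c had at most 12 reads, and Ces1f and Ces1e 3 and 4 reads in PBS 3.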
